A study of Mus musculus with 6 samples.

Results

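Cholesterol synthesis and lipogenic genes were followed in mouse inner medullary collecting duct (IMCD) cells, a kidney epithelial line. By their labels all samples overexpressed ILK, the T173I group as a missense variant (ILK-T173I) and the other group in wild-type form. A group without overexpression was not included. The set holds 36 genes listed by name: the enzymes from acetyl-CoA to cholesterol, the SREBP factors and their regulators, sterol transporters, and the enzymes that build, elongate and desaturate fatty acids. Of these, 33 had a probe set of their own among the 22180 genes so measured, and 32 of those were among the 13308 genes bright enough to be tested. Both groups carried a lentiviral vector for GFP and ILK, had been made into stable lines, and were given EGF (20 ng/ml, 15 minutes) followed by 1 hour of incubation before RNA was taken. Each group had 3 arrays, called biological replicates by the labels. The number of lines behind a group was not stated, so line and variant cannot be told apart, and the p-values measure the spread between these arrays.

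Cells make cholesterol from acetyl-CoA through mevalonate, squalene and a series of sterol intermediates. The transcription factors SREBP-1 and SREBP-2, encoded by Srebf1 and Srebf2, are held in the endoplasmic reticulum by Scap and the Insig proteins while sterols are plentiful. When sterols run low the factors are cleaved and enter the nucleus, SREBP-2 favouring the sterol enzymes and SREBP-1 the fatty acid enzymes.

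The values are log2 signals. Array medians were 5.45 to 5.52. Pearson correlations over the tested genes ran from 0.989 to 0.993 between wild-type arrays and from 0.964 to 0.983 between T173I arrays. The T173I arrays were thus less alike. T173I replicate 1 was closer to the wild-type arrays (0.9846 to 0.9907) than to T173I replicates 2 (0.9645) and 3 (0.9805). Of 15 collecting duct epithelial markers 13 were above the brightness filter of 5.37, among them Cdh1 (mean 11.3), Epcam (11.0) and Pax8, whereas Aqp3 and Tfap2b were below it. Aqp2, the vasopressin-regulated water channel that defines principal cells, was at 6.09 and Scnn1a, a sodium channel subunit, at 6.28, near the filter. Of lipid-rich cell types, 1 of 7 measured adipocyte markers (Plin1, with a difference of 0.08) and 3 of 8 hepatocyte markers were above it. Adipoq and Alb were not. Some markers moved with the groups without passing the adjusted threshold. Of the 13 collecting duct markers 5 had an unadjusted limma p under 0.05, against 10.2% of all genes tested, with Krt8, Krt18, Krt19 and Krt7 higher in T173I (by 0.41 to 1.62) and Gata3 lower (by -0.78). Of 8 macrophage markers 3 were above the filter, all 3 with such a p: Cd68 differed by 1.10, Csf1r by -0.78 and Tyrobp by -0.29, while Ptprc and Adgre1 were below the filter. Of 8 fibroblast and 8 proximal tubule markers 3 and 4 were above it, with 0 at such a p. The part of these markers in the results on lipid genes was not tested.

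**Figure D1:**
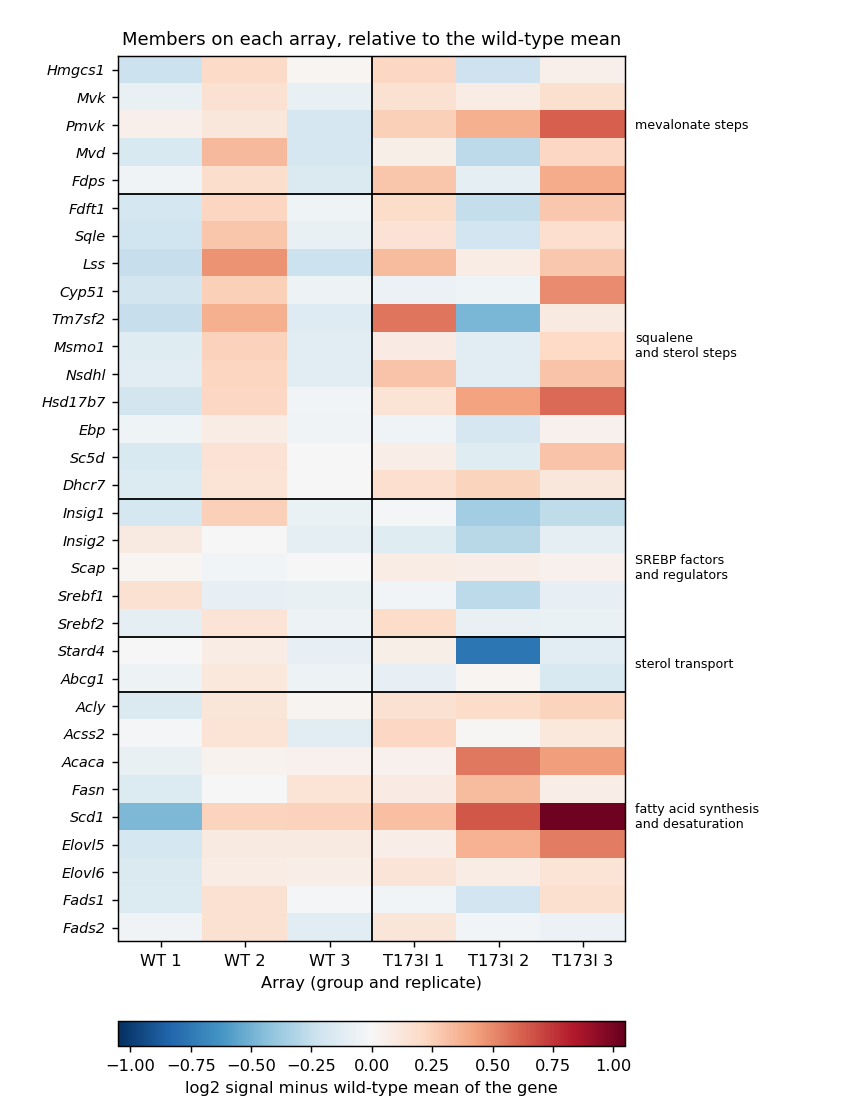
Log2 signal of the 32 tested members on each of the 6 arrays, minus the wild-type mean of the same gene, ordered by role. Rows of sterol enzymes are mostly red on wild-type replicate 2 and T173I replicates 1 and 3 and blue on wild-type replicates 1 and 3 and T173I replicate 2, while Scd1, Acaca and Elovl5 are reddest on T173I replicates 2 and 3.

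The sterol enzymes varied together from array to array more than they differed between the groups. All 16 tested genes of sterol synthesis had their highest wild-type signal on replicate 2, which was the case for 30.2% of all genes tested. Of the 16, 12 also had their lowest T173I signal on replicate 2, against 40.1% of all genes for that array by itself. Both orders held together in those 12 genes and in 11.5% of all genes. Set against each gene's wild-type mean, the 16 genes had a median of 0.22 on wild-type replicate 2, with -0.16 and -0.08 for replicates 1 and 3. In T173I the medians for replicates 1 and 3 were 0.17 and 0.25, and that for replicate 2 was -0.12. The groups therefore overlapped, and the median over all genes tested stayed between -0.03 and 0.01 on every array. This order was chosen after the values were seen and is given without a test.

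The RefSeq promoter windows (build GRCm38.p6, 250 bases before to 50 after a transcript start) held 28 of the 36 members in 36 windows. They are given because many of the sterol genes shared an order of arrays, and the fatty acid genes stand beside them for comparison. Whether the motifs have any part in that order was not tested. Each was searched on both strands for 4 motifs, overlapping matches included: TCACNCCAC, the core of the sterol regulatory element bound by SREBP; CCAAT, bound by NF-Y; GGGCGG, the GC box of Sp1; and CACGTG, an E-box. The sterol regulatory element core was found in 1.24% of all 32851 windows and, among members, only in that of Hmgcs1, starting 137 bases before the start. CCAAT was found in 14 of 15 sterol synthesis genes with a window, all but Acat2, and in 14 of their 18 windows, against 37.4% of all windows. GC boxes were in 15 of the 18 windows against 35.7%, and E-boxes in 3 against 7.15%. Of 7 windows of fatty acid genes 4 had CCAAT, 3 a GC box and 1 an E-box. A match is a description of letters, not a site shown to be used. A missing match does not show that a site is absent, as other forms of a motif and sites outside the windows were not searched. Fdps, Fdft1, Sqle, Stard4, Abcg1, Scd1, Scd2 and Fads1 had no window. Acaca and Pmvk, both with an unadjusted limma p under 0.05, are not printed. Acaca had no match to any of the motifs, and Pmvk had only a CCAAT, in 1 window. In the printed stretches, capitals mark CCAAT or its reverse complement ATTGG and, in Hmgcs1, the sterol regulatory element core. The 250 bases before the start are printed for 4 members, all of them with a CCAAT match. They are Hmgcs1 at chr13:119690101-119690350 (plus strand), Lss at chr10:76531355-76531604 (plus strand), Hsd17b7 at chr1:169969206-169969455 (minus strand) and Fasn at chr11:120824548-120824797 (minus strand).
Hmgcs1: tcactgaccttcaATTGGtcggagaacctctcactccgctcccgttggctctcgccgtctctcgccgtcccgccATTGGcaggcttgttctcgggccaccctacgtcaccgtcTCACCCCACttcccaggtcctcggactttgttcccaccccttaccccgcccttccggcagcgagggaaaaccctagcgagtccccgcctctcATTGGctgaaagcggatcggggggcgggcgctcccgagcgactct
Lss: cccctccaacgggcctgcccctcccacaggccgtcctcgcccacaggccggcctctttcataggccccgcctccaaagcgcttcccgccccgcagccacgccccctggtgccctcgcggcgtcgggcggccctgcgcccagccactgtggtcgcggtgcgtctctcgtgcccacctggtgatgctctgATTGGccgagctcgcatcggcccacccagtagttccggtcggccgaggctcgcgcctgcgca
Hsd17b7: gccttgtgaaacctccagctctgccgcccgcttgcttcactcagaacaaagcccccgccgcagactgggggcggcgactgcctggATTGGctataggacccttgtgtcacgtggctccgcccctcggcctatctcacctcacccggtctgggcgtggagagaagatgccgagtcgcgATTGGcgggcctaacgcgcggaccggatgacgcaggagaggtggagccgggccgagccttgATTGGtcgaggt
Fasn: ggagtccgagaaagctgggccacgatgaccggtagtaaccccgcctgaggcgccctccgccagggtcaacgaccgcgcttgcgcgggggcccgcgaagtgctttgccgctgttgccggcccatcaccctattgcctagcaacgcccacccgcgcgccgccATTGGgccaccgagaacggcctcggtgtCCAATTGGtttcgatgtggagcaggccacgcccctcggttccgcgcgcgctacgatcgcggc

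The first steps of the pathway, from acetyl-CoA to farnesyl diphosphate, showed 1 gene apart from the rest. Pmvk, phosphomevalonate kinase, was at 9.53, 9.60 and 9.30 on wild-type replicates 1 to 3 and at 9.72, 9.85 and 10.10 on T173I replicates 1 to 3. All 3 T173I arrays lay above all 3 wild-type arrays. The difference was 0.42 log2 units (95% interval 0.11 to 0.73), a 1.34-fold difference, with an unadjusted limma p of 0.0161 and an adjusted p of 0.449, so it did not pass. Leaving out single arrays gave differences of 0.31 to 0.50.

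Hmgcs1, HMG-CoA synthase, which makes the substrate of the committed step, was at 12.06, 12.49 and 12.30 in wild type and at 12.50, 12.06 and 12.34 in T173I. Its groups covered nearly the same range, and the difference was 0.02 (95% interval -0.35 to 0.39). Mvd, the decarboxylase that makes isopentenyl diphosphate, averaged 8.68 ± 0.30 (SD, n = 3) with wild-type ILK, and T173I cells averaged 8.68 ± 0.25 (SD, n = 3). Mvk, mevalonate kinase, and Fdps, farnesyl diphosphate synthase, had differences of 0.14 and 0.19, with overlapping groups. Idi1, isopentenyl diphosphate isomerase, shares its probe set with Gm13502. That probe set averaged 10.33 ± 0.14 (SD, n = 3) with wild-type ILK, and T173I cells averaged 10.37 ± 0.18 (SD, n = 3) (exact two-sided permutation p = 0.7, where 0.1 is the smallest possible). It too was highest on replicate 2 among the wild-type arrays and lowest on replicate 2 among the T173I arrays. Acat2 was not analysed here.

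From squalene to cholesterol, 10 of 11 genes had differences above 0, with a median of 0.08. Hsd17b7, a keto-reductase of sterol C4 demethylation, had the largest. It was at 9.62, 10.03 and 9.78 in wild type and at 9.95, 10.23 and 10.40 in T173I. T173I replicate 1 lay below wild-type replicate 2, so the groups overlapped by those arrays. The difference was 0.39 (95% interval 0.02 to 0.75), or 1.31-fold, with an unadjusted limma p of 0.0427 and an adjusted p of 0.486.

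Sqle, squalene epoxidase, a control point of the pathway, was at 10.58, 11.08 and 10.72 in wild type and at 10.95, 10.59 and 10.97 in T173I. The spread within each group was far wider than the difference of 0.04 (95% interval -0.35 to 0.44). Lss, lanosterol synthase, was at 9.77, 10.48 and 9.78 in wild type and at 10.34, 10.09 and 10.29 in T173I. Wild-type replicate 2 exceeded the mean of the other wild-type arrays by 0.71, while the difference between groups was 0.23 (95% interval -0.26 to 0.72). Tm7sf2, a sterol C14 reductase, had the widest T173I spread of these enzymes, from 7.63 on replicate 2 to 8.68 on replicate 1, and a group difference of 0.06.

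Fdft1, squalene synthase, Cyp51, lanosterol demethylase, and Nsdhl and Msmo1, enzymes of C4 demethylation, had differences of 0.06 to 0.16. Sc5d, a sterol desaturase, had one of 0.08 and Dhcr7, which completes cholesterol in one branch, one of 0.18. Ebp, the sterol isomerase, had the only negative difference, -0.06. Fdft1 was at 11.63 on wild-type replicate 2 and 11.22 and 11.36 on the others, and at 11.15 on T173I replicate 2 and 11.59 and 11.68 on the others. Dhcr7 and Hsd17b7 were the exceptions that were not low on T173I replicate 2, as was Pmvk, and the Cyp51 signal there (11.00) was close to that on T173I replicate 1 (10.99).

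Over both stages of the pathway 15 of 16 genes had positive differences, against 47.4% of all genes tested, with a median of 0.11 against -0.01. Leaving out wild-type replicate 1 reduced the genes with positive differences to 9 and their median to 0.02. Leaving out T173I replicate 3 gave 8 such genes and a median of 0.02. Dropping T173I replicate 1 gave 11 such genes. The median went to 0.23 once wild-type replicate 2 was dropped and to 0.20 once T173I replicate 2 was dropped.

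**Figure D2:**
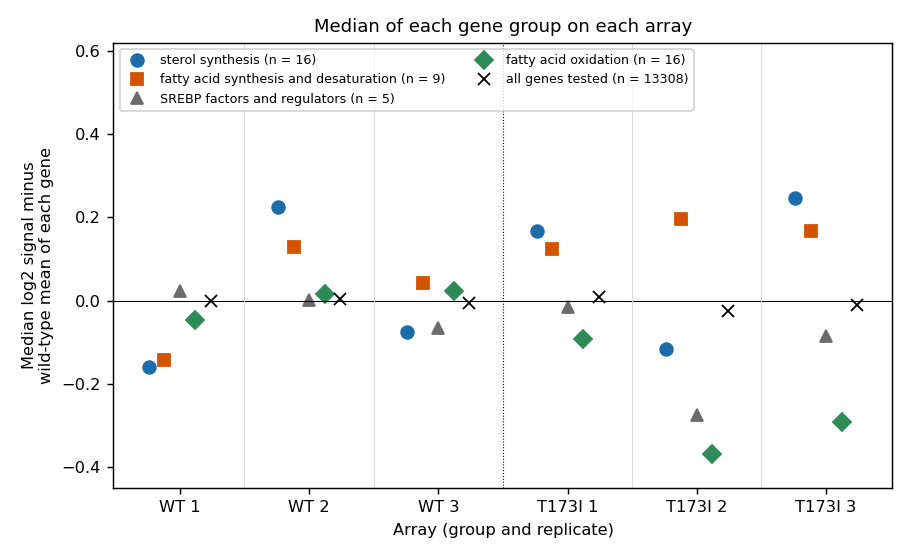
Median log2 signal of 4 gene groups and of all tested genes on each array, after subtracting the wild-type mean of each gene, with n the number of genes. The sterol enzymes reach 0.22 on wild-type replicate 2 and 0.25 on T173I replicate 3 and fall to -0.12 on T173I replicate 2. Fatty acid synthesis genes are at 0.12 to 0.20 on all T173I arrays and also at 0.13 on wild-type replicate 2.

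The 5 tested genes of SREBP factors and regulators had a median difference of -0.13, and each 95% interval included 0. These are RNA signals, so cleavage and nuclear entry of the factors were not measured. Srebf2 was at 9.98, 10.22 and 10.03 in wild type and at 10.27, 10.00 and 10.01 in T173I, a difference of 0.02 (95% interval -0.25 to 0.29). Its sign turned without wild-type replicate 1 or 3, without T173I replicate 1 and with array weights. Srebf1 was at 8.81, 8.57 and 8.58 in wild type and at 8.63, 8.38 and 8.57 in T173I, a difference of -0.13 (95% interval -0.39 to 0.13). Neither gene separated the groups, and the Srebf1 difference shrank to -0.05 when either wild-type replicate 1 or T173I replicate 2 was left out. Scap, the escort of the SREBP precursors, had all T173I arrays (8.74 to 8.78) above all wild-type arrays (8.67 to 8.72), by a difference of 0.06 (95% interval -0.11 to 0.23). Another, dimmer Scap probe set did not separate the groups. It was at 5.71, 5.59 and 5.64 in wild type and at 5.67, 5.67 and 5.76 in T173I.

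Insig1, which retains the SREBP complex and is itself a well-known SREBP target, was at 12.09, 12.53 and 12.21 in wild type and at 12.26, 11.91 and 12.01 in T173I. Like the enzymes, it was highest on wild-type replicate 2 and lowest on T173I replicate 2. Its difference was -0.22 (95% interval -0.57 to 0.14). When single arrays were left out, the difference ran from -0.32 without T173I replicate 1 to -0.09 without wild-type replicate 2. Insig2, the second retention protein, was at 8.37, 8.28 and 8.18 in wild type and at 8.15, 7.98 and 8.18 in T173I. Its difference was -0.17 (95% interval -0.40 to 0.05), and T173I replicate 3 lay just above the lowest wild-type array.

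Among the sterol transport genes, Stard4, a cytosolic sterol carrier, had the largest negative difference of all tested members. It was at 9.39, 9.47 and 9.31 in wild type and at 9.45, 8.63 and 9.28 in T173I. The low value came from T173I replicate 2 by itself, and replicates 1 and 3 lay within or close to the wild-type range. The difference of -0.27 (95% interval -0.77 to 0.23) was -0.02 without that array. Abca1, a cholesterol export pump induced by LXR receptors, was below the brightness filter and not in the main test, at 5.01, 4.92 and 5.09 in wild type and 5.01, 4.54 and 4.85 in T173I. With no filter its difference was -0.21 (limma unadjusted p = 0.161, adjusted p = 0.653). Abcg1, a related export protein, had a difference of -0.08.

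**Figure D3:**
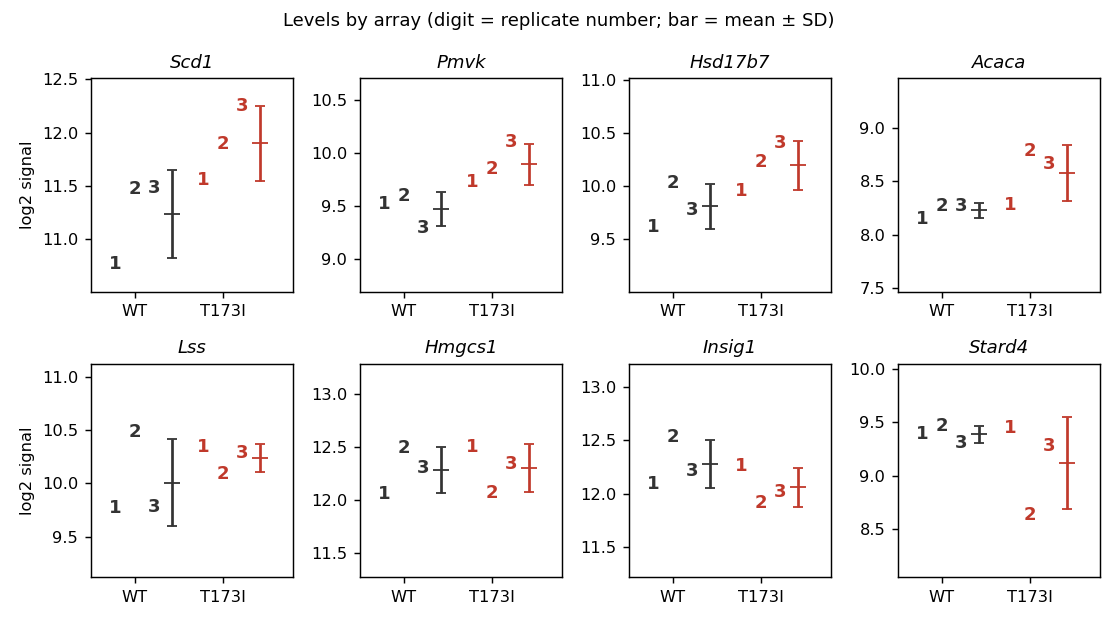
Log2 signal of 8 members on each array, with the digit giving the replicate number and the bar the mean and SD of the 3 arrays of a group; each panel spans 2 log2 units. Scd1, Pmvk and Acaca have all T173I arrays above the wild-type arrays, whereas Lss, Hmgcs1 and Insig1 spread as widely within a group as between the groups.

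The fatty acid branch leaned towards higher signal in T173I. Of 9 tested genes, 8 had positive differences (median 0.16), against 47.4% of all genes tested. The median of the group was 0.12, 0.20 and 0.17 on T173I replicates 1 to 3 against -0.14, 0.13 and 0.04 in wild type. The order of arrays of the sterol enzymes was seen in some of them. Of the 9, 5 were highest on wild-type replicate 2 among the wild-type arrays, against 30.2% of all genes, and 3 were lowest on T173I replicate 2 among the T173I arrays, against 40.1%. Those 3, Acss2, Elovl6 and Fads1, had both orders, against 11.5% of all genes. Without wild-type replicate 1 the median was 0.10. No member passed the adjusted threshold.

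Scd1, stearoyl-CoA desaturase, which makes oleate and palmitoleate, had the largest difference of all members. It was at 10.76, 11.47 and 11.48 in wild type and at 11.55, 11.89 and 12.25 in T173I. The groups did not overlap, but T173I replicate 1 was close to the higher wild-type arrays and wild-type replicate 1 lay well below the rest. The difference was 0.66 (95% interval 0.06 to 1.27), or 1.58-fold, with an unadjusted limma p of 0.0358 and an adjusted p of 0.484. Without wild-type replicate 1 the difference was 0.43 (limma unadjusted p = 0.0971).

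Scd2, a second desaturase, shares its probe set with Mir5114. That probe set was at 12.61, 12.81 and 12.67 in wild type and at 12.85, 12.97 and 13.01 in T173I, with all T173I arrays above the wild-type arrays. The difference was 0.25, and the exact two-sided permutation p was 0.1, the smallest that 3 arrays against 3 can give. Leaving out single arrays gave 0.20 to 0.30.

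Acaca, acetyl-CoA carboxylase, which makes malonyl-CoA, was at 8.15, 8.27 and 8.27 in wild type and at 8.28, 8.78 and 8.66 in T173I. T173I replicate 1 was barely above the highest wild-type array, and replicates 2 and 3 were clearly higher. The difference was 0.34 (95% interval 0.01 to 0.68), or 1.27-fold, with an unadjusted limma p of 0.0456 and an adjusted p of 0.486. Without T173I replicate 1 it was 0.49, with an adjusted limma p of 0.0685. The adjusted p ran from 0.0685 to 0.838 over the alternatives.

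Fasn, fatty acid synthase, was at 10.50, 10.63 and 10.78 in wild type and at 10.72, 10.97 and 10.71 in T173I. The groups overlapped, and the difference was 0.16 (95% interval -0.11 to 0.44). It became 0.09 when wild-type replicate 1 was left out and 0.08 when T173I replicate 2 was. Acly, ATP citrate lyase, which supplies cytosolic acetyl-CoA, had all T173I arrays (10.75 to 10.83) above all wild-type arrays (10.44 to 10.73), with a difference of 0.19 and an unadjusted limma p of 0.0843. Acss2, which makes acetyl-CoA from acetate, had a difference of 0.11.

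Elovl5, an elongase of polyunsaturated fatty acids, had a difference of 0.32 (95% interval -0.03 to 0.67), with T173I replicate 1 at 10.87 inside the wild-type range and replicates 2 and 3 at 11.17 and 11.34 above it. Elovl6, which elongates palmitate, differed by 0.12. Fads1 and Fads2, the desaturases of polyunsaturated fatty acids, had differences of -0.02 and 0.01 with overlapping groups. Fads1 had the order of the sterol enzymes, highest on wild-type replicate 2 and lowest on T173I replicate 2.

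**Figure D4:**
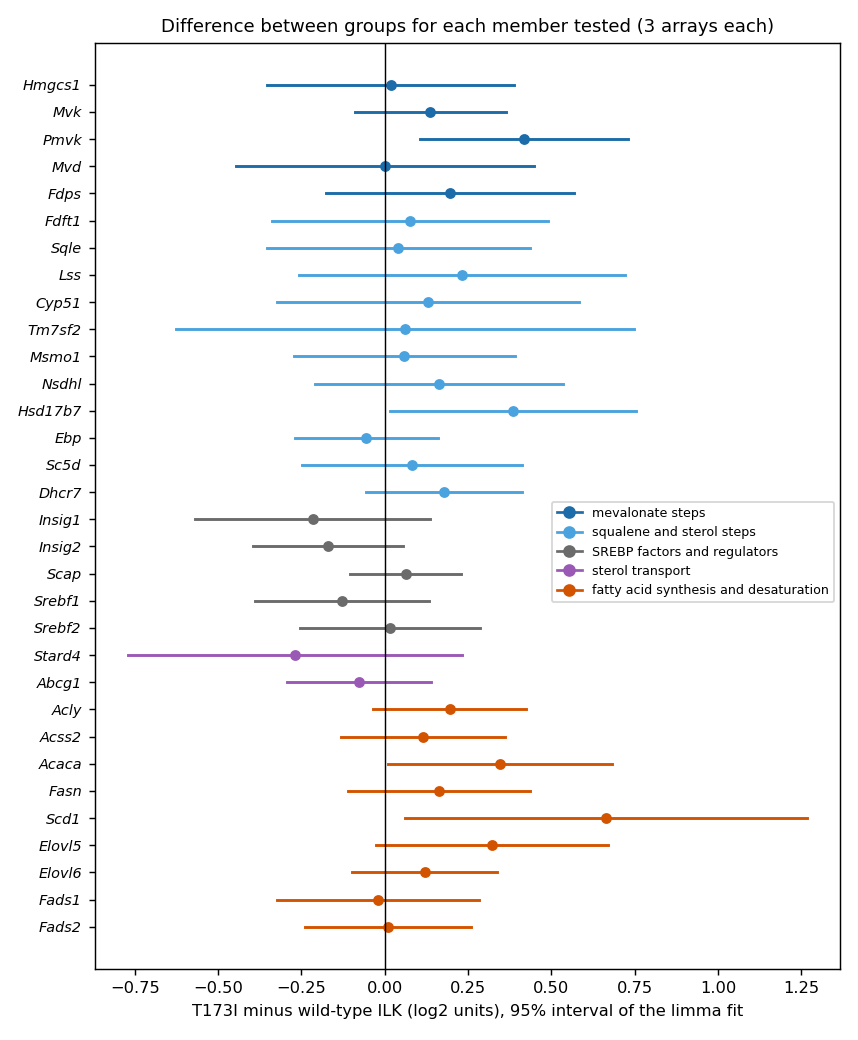
T173I minus wild-type ILK difference in log2 units for each tested member, with the 95% interval of the limma fit over all 6 arrays and colours for the role groups. The intervals of Scd1, Pmvk, Hsd17b7 and Acaca lie above 0, and those of the other 28 members include 0.

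Across the whole set, 0 of 32 tested members had an adjusted limma p under 0.05, as did 0% of the 13308 genes tested. At an unadjusted p under 0.05 there were 4 higher members, Pmvk, Scd1, Hsd17b7 and Acaca, against 4.88% of all genes, and 0 lower ones, against 5.31%. The groups did not overlap in 5 members with T173I higher, Pmvk, Scap, Acly, Acaca and Scd1, against 7.23% of all genes. They did so in 0 members with T173I lower, against 7.95%. Of the 32, 25 had positive differences, against 47.4% of all genes tested, with a median of 0.08. Leaving out wild-type replicate 1, wild-type replicate 3 or T173I replicate 3 left 1 member with an unadjusted limma p under 0.05, and leaving out T173I replicate 2 left 2. The share of all genes with such a p in either direction was 10.2% over all arrays and 5%, 8.09%, 7.35% and 7.64% in those 4 fits. Without wild-type replicate 2 there were 5 such members, against 5.97% of all genes. Without T173I replicate 1 there were also 5, against 22.2% of all genes. The median of the members became 0.02 when wild-type replicate 1 was dropped, 0.18 when wild-type replicate 2 was, 0.16 when T173I replicate 2 was and 0.05 when T173I replicate 3 was. Of the 32 members, 4 had their highest T173I signal on replicate 2, against 30.1% of all genes. Without T173I replicate 1, 156 genes passed the adjusted limma threshold, and 0 of them were members.

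Other genes of lipid metabolism were taken from 6 further lists, in which 0 genes passed the adjusted threshold. Of 9 other sterol and isoprenoid enzymes, 5 had positive differences, against 47.4% of all genes tested. In this list 0 genes reached an unadjusted limma p under 0.05, against 10.2% of all genes. Ggps1, which makes geranylgeranyl diphosphate, had the smallest p, with a difference of 0.20. Their median was 0.02 over all arrays. It became 0.05 when wild-type replicate 2 was left out and 0.0025 when T173I replicate 2 was. Of 8 genes of SREBP cleavage and sterol-driven protein turnover, 7 had negative differences (median -0.16), where 47.4% of all genes tested had positive ones. Erlin2, a scaffold of endoplasmic reticulum degradation, averaged 9.71 ± 0.08 (SD, n = 3) with wild-type ILK, and T173I cells averaged 9.38 ± 0.25 (SD, n = 3), with groups that overlapped by T173I replicate 1. Mbtps1, the site-1 protease of SREBP, had a difference of -0.20 with all T173I arrays below the wild-type arrays.

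Of 18 genes of LXR signalling and sterol traffic, 13 had negative differences, where 47.4% of all genes tested had positive ones. The median of the list was -0.11. It became -0.175 when T173I replicate 1 was left out, -0.06 when wild-type replicate 2 was and -0.02 when T173I replicate 2 was. At an unadjusted limma p under 0.05 there were 1 higher and 2 lower genes, against 4.88% and 5.31% of all genes tested. Lrp8, a lipoprotein receptor, was at 7.32, 7.58 and 7.61 in wild type and 7.84, 8.46 and 8.51 in T173I, a 1.70-fold difference (limma unadjusted p = 0.00643, adjusted p = 0.449). Mylip, an LXR-induced ubiquitin ligase of lipoprotein receptors, was at 8.46, 8.30 and 8.59 in wild type and 8.34, 6.90 and 7.50 in T173I. Its T173I replicate 1 lay within the wild-type range, and the difference was -0.87 (95% interval -1.67 to -0.06). Osbp, an oxysterol-binding protein, had a difference of -0.23.

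Of 15 other genes of fatty acid synthesis and activation, 9 had positive differences, against 47.4% of all genes tested. At an unadjusted limma p under 0.05 there were 2 genes, both higher, against 4.88% of all genes. Me1, malic enzyme, a source of NADPH for fatty acid synthesis, differed by 0.60 and Hsd17b12, the keto-reductase of fatty acid elongation, by 0.25, both with groups that did not overlap. The median of this list was 0.03 over all arrays and 0.07 without T173I replicate 3. Of 17 genes of triglyceride and phospholipid assembly 7 had positive differences (median -0.03). This median had no stable sign: it was -0.17 without T173I replicate 1, -0.11 without wild-type replicate 3 and 0.02 without wild-type or T173I replicate 2. Lpin2, a phosphatidate phosphatase, had a difference of 0.30.

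The order of arrays described for the sterol enzymes, highest on wild-type replicate 2 and lowest on T173I replicate 2, also occurred in the further lists. It held in 7 of 17 genes of triglyceride and phospholipid assembly, 5 of 15 other genes of fatty acid synthesis and activation and 2 of 9 other sterol and isoprenoid enzymes, against 11.5% of all genes tested. It held in 3 of 18 genes of LXR signalling and sterol traffic, 1 of 8 of SREBP cleavage and turnover and 1 of 16 of fatty acid oxidation. Differences between lists in this order were not tested.

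Fatty acid oxidation genes mostly had lower signal in T173I. Of 16, 14 had negative differences with a median of -0.25, where 47.4% of all genes tested had positive ones, and this count stayed at 14 whichever array was left out (median -0.32 to -0.20). At an unadjusted limma p under 0.05 there were 4 lower and 2 higher genes, against 5.31% and 4.88% of all genes tested. Pdk4, the kinase that restrains pyruvate dehydrogenase, was at 6.92, 6.41 and 6.40 in wild type and 5.78, 6.10 and 6.18 in T173I, and Etfdh, which passes electrons from oxidation to ubiquinone, had a difference of -0.27. The positive differences were those of the nuclear receptors Pparg, at 0.64, and Ppard, at 0.42. The list's medians for T173I replicates 1 to 3 were -0.09, -0.37 and -0.29, all below the wild-type arrays at -0.05 to 0.02. Whether synthesis and oxidation genes differ from each other in their response was not tested.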

How the data were processed

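Total RNA of 6 samples was hybridised to 1 array each. Deposited values are log2 signals summarised by RMA, per the submitters' processing notes, which name no version. Because RMA makes the signal distributions of arrays alike, it would hide a shift shared by most genes. Precision here is limited by how many arrays there are. Of 41345 probe sets, those with exactly 1 symbol in the platform annotation were used, the brightest by mean over all arrays standing for a gene. The 40% of genes with the lowest mean (log2 5.37 or less) were left out. T173I was compared with wild type in limma 3.58.1 (R 4.3.3; lmFit, eBayes, no covariate, two-sided, Benjamini-Hochberg over 13308 genes). Differences are T173I minus wild type, and fold changes are their antilogs. The fit was tested on simulated data whose added changes were larger than any difference of a member. Recovery of differences of the size seen in the members was not tested. Some values are exactly equal between arrays, in 4 of the 32 tested members and 2639 of all genes tested. Values on each array were given for members with an unadjusted p under 0.05, for the 3 largest differences in each direction and for 8 landmarks (Srebf1, Srebf2, Insig1, Hmgcs1, Sqle, Fasn, Scd2, Abca1), and for up to 3 genes per further list. Lss, Scap, Acly, Elovl5, Tm7sf2, Fdft1 and Ppard were described beyond that rule after their values were seen. The members and lists were chosen with earlier results of these data known. Alternatives covered the filter, probe set rule, prior, normalization, array weights, replicate block and leaving out each array.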

Additional observations from a re-analysis of the deposited data

How the results depend on the processing

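The count of 0 members past the adjusted limma threshold held under the 8 alternative settings and without each array in turn. Leaving out single arrays gave 1 to 5 members with an unadjusted p under 0.05, 5 to 11 whose groups did not overlap, and a median difference of 0.0179 to 0.182. The other 8 settings kept each of these, and the count of sterol genes with the shared order of arrays (11 to 13), within 1.5 times or 1 SD between arrays (0.139 for the median). In the fits without an array, 5% to 22.2% of all genes had an unadjusted limma p under 0.05. With fewer arrays groups separate more easily. The share of all genes with separate groups was not computed for those fits, so the rise to 11 members cannot be read as theirs. Of 13 differences named, Srebf2 and Hmgcs1 changed sign with array weights (-0.0712 and -0.0138). Without single arrays Srebf2 ranged from -0.0723 to 0.0887, Hmgcs1 from -0.0939 to 0.137 and Sqle from -0.0642 to 0.185. The cause was not tested. Array weights raised the share of all genes with an unadjusted p under 0.05 to 21.5%, with 5 members. Same-numbered arrays did not deviate together (correlations of 0.049, 0.067 and 0.048 over the tested genes), and not every array correlated best with its own number. With the replicate number as a block, 5 members had an unadjusted p under 0.05 and 0 passed the adjusted threshold. Members near the filter, such as Abca1, have little signal above background.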
